A study of Mus musculus with 6 samples.

Results

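The granule genes examined here encode proteins that neutrophils store in their specific and gelatinase granules: Ltf, Camp, Ngp, Lcn2, Chil3, Hp, Cd177, Mmp8, Mmp9 and Ceacam10. They were found on the array as every probe set whose only gene symbol is that of a member, which gave 13 probe sets for the 10 genes, of 34945 probe sets and 18193 genes with a single symbol. All samples came from mice of C57BL/6 background that carry the Hdc-GFP reporter, in which green fluorescent protein reads out Hdc, the gene of the enzyme that makes histamine. Cells of femur and tibia marrow were sorted as GFP-positive or GFP-high and CD11b-positive, CD11b being an integrin subunit of myeloid cells, and were split into Gr1lo (3 arrays) and Gr1hi (3 arrays). No treatment, time or age is given for either group, all mice are labelled female, and 100 ng of total RNA per sample went onto an Affymetrix 3' expression array. Whether a replicate is a mouse, a pool of mice or a repeat of the same RNA is not stated, so the p-values describe the spread between these 6 samples, which may be technical, and the number of arrays limits the precision.

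Neutrophils fill their granules in sequence while they mature in the marrow. Azurophil (primary) granules form in promyelocytes, specific (secondary) granules in myelocytes and metamyelocytes, gelatinase (tertiary) granules in band cells, and secretory vesicles last, and the content of a granule reflects which genes were transcribed while it formed. Transcription factors of the C/EBP family, above all C/EBP epsilon, are known to be needed for the genes of specific granules. The Gr1 antibody binds Ly6G and Ly6C, and its signal on neutrophils increases as they mature.

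Each value is a GCRMA log2 value of a probe set, and a difference is always Gr1hi minus Gr1lo on that scale. Array maxima lay between 14.83 and 15.01, and probe sets for absent bacterial transcripts reached at most 2.77. A value of a probe set shows how bright it was, so levels of different genes are not ranked against each other below. The label of sex was at odds with the data: Y-linked Eif2s3y read 9.02 to 10.66 on the 6 arrays, while Xist read 10.95 and 10.14 on the replicate 3 arrays of Gr1lo and Gr1hi and 1.97 to 2.43 on the others. The replicate 3 arrays thus stand apart, the description of Gr1lo replicate 3 writes its GFP status ambiguously, and the count of members is therefore also given without them. CD11b (Itgam) was present in both groups, at 11.28 ± 0.18 in Gr1lo and 12.16 ± 0.10 in Gr1hi, and the neutrophil genes S100a8 and S100a9 read 14.82 or more on every array. In sorted bulk RNA, fewer cells of a kind and less transcript per cell cannot be told apart.

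The stretch just before the transcription start is shown for Ltf, Ngp, Lcn2 and Mmp8, whose sequences carry 8-base matches that they share in pairs, and for Camp, which has no match. Each is the 250 bases before the start on the strand of the gene, 5′ to 3′, from RefSeq for GRCm38.p6, where 8 of the 10 members had an entry (all but Mmp9 and Hp). Capitals mark matches to TTNNGNAA, a relaxed form of the C/EBP site, read on both strands (TTNCNNAA on the other). The positions are chr9:111019042-111019291 (+) for Ltf, chr9:110419558-110419807 (+) for Ngp, chr2:32387740-32387989 (-) for Lcn2, chr9:7558179-7558428 (+) for Mmp8 and chr9:109849457-109849706 (-) for Camp.
Ltf: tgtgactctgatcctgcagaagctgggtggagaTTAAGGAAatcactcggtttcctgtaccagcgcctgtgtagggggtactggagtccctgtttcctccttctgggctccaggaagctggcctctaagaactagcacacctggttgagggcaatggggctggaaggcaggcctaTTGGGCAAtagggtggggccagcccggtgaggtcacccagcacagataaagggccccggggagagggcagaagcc
Ngp: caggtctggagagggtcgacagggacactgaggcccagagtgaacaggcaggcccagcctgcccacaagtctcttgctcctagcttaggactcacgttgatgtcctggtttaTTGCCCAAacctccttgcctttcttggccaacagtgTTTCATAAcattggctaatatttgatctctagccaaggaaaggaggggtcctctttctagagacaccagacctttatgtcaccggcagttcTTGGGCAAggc
Lcn2: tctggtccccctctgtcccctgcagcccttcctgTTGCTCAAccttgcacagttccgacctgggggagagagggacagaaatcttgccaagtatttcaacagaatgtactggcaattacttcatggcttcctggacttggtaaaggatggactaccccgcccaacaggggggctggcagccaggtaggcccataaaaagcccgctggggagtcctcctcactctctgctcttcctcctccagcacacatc
Mmp8: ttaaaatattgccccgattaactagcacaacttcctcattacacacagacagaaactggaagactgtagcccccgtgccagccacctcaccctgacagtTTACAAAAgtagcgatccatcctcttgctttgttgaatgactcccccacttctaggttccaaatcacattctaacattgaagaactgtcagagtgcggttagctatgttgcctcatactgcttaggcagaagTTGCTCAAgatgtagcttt
Camp: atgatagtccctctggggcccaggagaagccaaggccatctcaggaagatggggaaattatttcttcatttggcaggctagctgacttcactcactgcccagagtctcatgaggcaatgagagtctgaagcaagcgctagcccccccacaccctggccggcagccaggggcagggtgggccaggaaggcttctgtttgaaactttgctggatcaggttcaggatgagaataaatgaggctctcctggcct

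TTGGGCAA or its reverse TTGCCCAA begins 75 bases before the start in Ltf and 138 and 11 bases before it in Ngp. TTGCTCAA begins 216 bases before the start in Lcn2 and 19 bases before it in Mmp8. These words were picked out after the promoters had been read, and of 32851 mouse promoters 0.709% hold TTGGGCAA and 0.868% hold TTGCTCAA on either strand. Mmp8 also shares TTACAAAA, 151 bases before its start, with Chil3 (27 bases before the start, sequence not shown). The share of all promoters with TTACAAAA was not counted. The relaxed motif itself occurs in 6 of the 8 members with an entry, once in Lcn2 and Cd177, at 2 places in Ltf and Mmp8 and at 3 in Ngp and Chil3, against 36.8% of all promoters with at least 1 match and 10.9% with 2 or more. Neither start of Ceacam10 has a match. GAGGAA, the core of PU.1 sites (TTCCTC on the other strand), occurs in 5 of the 8 members and in 23.3% of all promoters, and no match of the 2 motifs overlapped in the members. A match says only that these letters are present. Of the pair that shares TTGCTCAA, Mmp8 was called higher in Gr1hi and Lcn2 was not called, as given next.

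Of the 10 granule genes, 5 were higher in Gr1hi than in Gr1lo cells. The matrix metalloproteinases Mmp8 and Mmp9 and the CEA family gene Ceacam10 rose 4.01-fold to 5.52-fold, and the surface and granule glycoprotein gene Cd177 and the haptoglobin gene Hp rose by 1.32-fold and 1.33-fold. Ltf, Camp, Ngp, Lcn2 and Chil3 did not pass the test, and their values lay within 1 log2 unit of the array's maximum on every array. By limma with Benjamini-Hochberg adjustment over 12739 tested genes and a threshold of 0.05, 5 of 10 members were thus higher and 0 were lower, where 24.6% of all tested genes were higher and 31.8% lower. At an unadjusted p under 0.05 the count lower was 1, Chil3. The median difference of the 10 members was 0.28, against 0.03 over all tested genes. The groups of arrays did not overlap for 6 members, the 5 called ones and Lcn2, and for 65.5% of all tested genes. The brightest probe set of every member lay above the 93rd percentile of each array, so the filter on low values removed none.

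**Figure D1:**
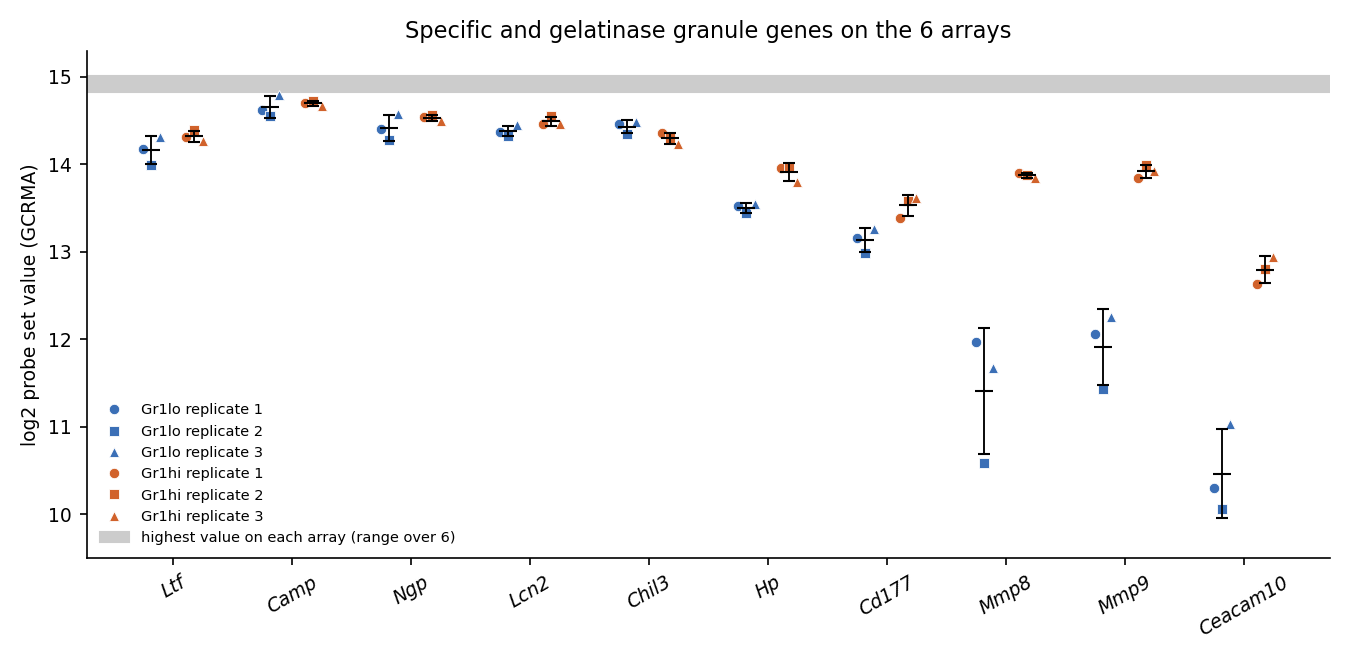
The log2 value of each granule gene on the 6 arrays (blue, Gr1lo; orange, Gr1hi; marker shape, replicate number), with the group mean and SD (n = 3) as bars and the range of the array maxima as a grey band. Mmp8, Mmp9 and Ceacam10 are separated by more than 1.58 log2 units between the groups, while Ltf, Camp, Ngp, Lcn2 and Chil3 sit just under the band in both.

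The scaling of the arrays sets how far these calls reach. Centring each array on the median value of its kept genes (median centring) adds 0.68 to the difference of every gene and brings the count to 10 members higher and 0 lower. Centring each array on its hybridization controls (control centring) shifts it by -0.26 and leaves 3 higher (Mmp8, Mmp9 and Ceacam10) and 1 lower (Chil3). Over all genes the split moves the same way, from 3128 higher and 4051 lower to 8354 and 2313 under the former and to 1861 and 4848 under the latter. Mmp8, Mmp9 and Ceacam10 were called higher under all 19 alternatives tried.

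Mmp8 encodes neutrophil collagenase, which is stored in specific granules and cuts fibrillar collagen. Its probe set (1449366_at) read 11.97, 10.59 and 11.67 on the Gr1lo arrays and 13.91, 13.88 and 13.84 on the Gr1hi arrays. The Gr1hi arrays lay close together and at least 1.87 above the highest Gr1lo array, and Gr1lo replicate 2 was the lowest of all. The mean rose from 11.41 ± 0.72 to 13.88 ± 0.031 (SD, n = 3 per group), a difference of 2.46 (SE 0.28, 95% interval 1.82 to 3.10, limma adjusted p = 5.66e-05). Without Gr1lo replicate 2 the difference was 2.05.

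Mmp9 encodes gelatinase B, which gives the gelatinase granule its name. The brighter of its 2 probe sets (1416298_at) read 12.06, 11.43 and 12.26 in Gr1lo and 13.85, 13.99 and 13.93 in Gr1hi. Again the groups were well apart and Gr1lo replicate 2 was lowest. The difference was 2.01 (SE 0.18, 95% interval 1.60 to 2.41, limma adjusted p = 1.07e-05), between means of 11.92 ± 0.43 and 13.92 ± 0.073. The dimmer probe set (1448291_at) read 10.88, 9.88 and 11.10 in Gr1lo and 13.18, 13.42 and 13.26 in Gr1hi. It thus showed the same order of arrays with a larger difference, 2.67 (6.35-fold, limma adjusted p = 1.89e-05 in the fit of single probe sets).

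Ceacam10 is a secreted mouse member of the carcinoembryonic antigen family. Its brightest probe set (1417074_at) read 10.30, 10.06 and 11.04 in Gr1lo and 12.64, 12.81 and 12.95 in Gr1hi, so every Gr1hi array lay at least 1.60 above every Gr1lo array. The means were 10.47 ± 0.51 and 12.80 ± 0.16, and the difference was 2.33 (SE 0.21, 95% interval 1.85 to 2.82, limma adjusted p = 1.38e-05). The next (1448573_a_at) gave 9.62 ± 0.61 and 12.32 ± 0.11, a difference of 2.70 (6.52-fold, limma adjusted p = 1.26e-05). The third probe set (1436565_at) was dim. It averaged 2.05 ± 0.18 in Gr1lo, no higher than the absent-transcript controls, and 3.37 ± 0.41 in Gr1hi, so it passed the filter only through Gr1hi and is given no fold.

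Cd177 encodes a glycoprotein anchored in the plasma membrane and in the membrane of specific granules of neutrophils. Its probe set (1424509_at) read 13.16, 12.98 and 13.26 in Gr1lo and 13.39, 13.58 and 13.62 in Gr1hi. The groups were apart by only 0.13, less than the range within either group. The difference was 0.40 (SE 0.089, 95% interval 0.20 to 0.60, limma adjusted p = 0.00368). Hp encodes haptoglobin, which binds free haemoglobin and is stored in specific granules of neutrophils. Its probe set (1448881_at) read 13.52, 13.44 and 13.55 in Gr1lo and 13.96, 13.98 and 13.80 in Gr1hi. Here the gap of 0.25 between the groups exceeded the range within each, and the difference was 0.41 (SE 0.066, 95% interval 0.26 to 0.56, limma adjusted p = 0.000498). With control centring both lost their call, at 0.14 (adjusted p = 0.417) for Cd177 and 0.15 (adjusted p = 0.319) for Hp.

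The classical specific granule genes showed small differences. Ltf encodes lactoferrin, an iron-binding protein. Its probe set (1450009_at) read 14.18, 13.99 and 14.31 in Gr1lo and 14.31, 14.39 and 14.26 in Gr1hi, overlapping groups with a difference of 0.16 (95% interval -0.022 to 0.34, limma adjusted p = 0.121). Camp encodes the precursor of the antimicrobial peptide cathelicidin. Its probe set (1419691_at) read 14.62, 14.55 and 14.80 in Gr1lo and 14.70, 14.73 and 14.66 in Gr1hi. All Gr1hi values fell inside the range of Gr1lo, and the difference was 0.042 (95% interval -0.11 to 0.19, limma adjusted p = 0.609). Its sign turned under repeated quantile normalization, under control centring and without Gr1lo replicate 2. Ngp encodes neutrophilic granule protein, a relative of the cystatins and cathelicidins. Its probe set (1418722_at) read 14.40, 14.28 and 14.57 in Gr1lo and 14.54, 14.57 and 14.50 in Gr1hi, again overlapping, with a difference of 0.12 (95% interval -0.046 to 0.28, limma adjusted p = 0.198).

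Lcn2 encodes lipocalin 2, which withholds iron from bacteria by binding their siderophores. Its probe set (1427747_a_at) read 14.37, 14.33 and 14.45 in Gr1lo and 14.46, 14.55 and 14.46 in Gr1hi. The groups were apart by 0.017, and the difference of 0.11 (95% interval -0.0076 to 0.23, limma adjusted p = 0.101) did not pass the test. Chil3 encodes a chitinase-like lectin (Ym1) made by neutrophils and some macrophages. Its probe set (1419764_at) read 14.47, 14.34 and 14.49 in Gr1lo and 14.36, 14.31 and 14.23 in Gr1hi, and was the single member with a lower mean in Gr1hi on the deposited scale. The difference was -0.14 (95% interval -0.27 to -0.0043) with an unadjusted p = 0.0443 and a limma adjusted p = 0.0743. Without Gr1lo replicate 2 it was -0.18 and passed (adjusted p = 0.0143), and with median centring it was 0.54, on the other side of 0. A probe set (1425451_s_at) shared by Chil3 and the closely similar Chil4 read 14.46, 14.34 and 14.44 in Gr1lo and 14.17, 14.19 and 14.03 in Gr1hi. The groups did not overlap on that probe set, whose difference of -0.28 was not tested because it names no single gene.

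Leaving out both replicate 3 arrays, which Xist set apart, raised the count to 7 members higher and 0 lower, where 2772 of 12878 tested genes were higher and 3753 lower. Ltf joined at 0.26 (limma adjusted p = 0.0405) and Ngp at 0.21 (limma adjusted p = 0.0448), while Chil3 stood at -0.073 (adjusted p = 0.441). Leaving out Gr1lo replicate 3 alone also gave 7, where 3000 of 12414 tested genes were higher. Per probe set, 8 of 13 were higher and 0 lower by limma (26.2% of 22715 tested probe sets were higher), or 7 of 12 without the dim Ceacam10 probe set.

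**Figure D2:**
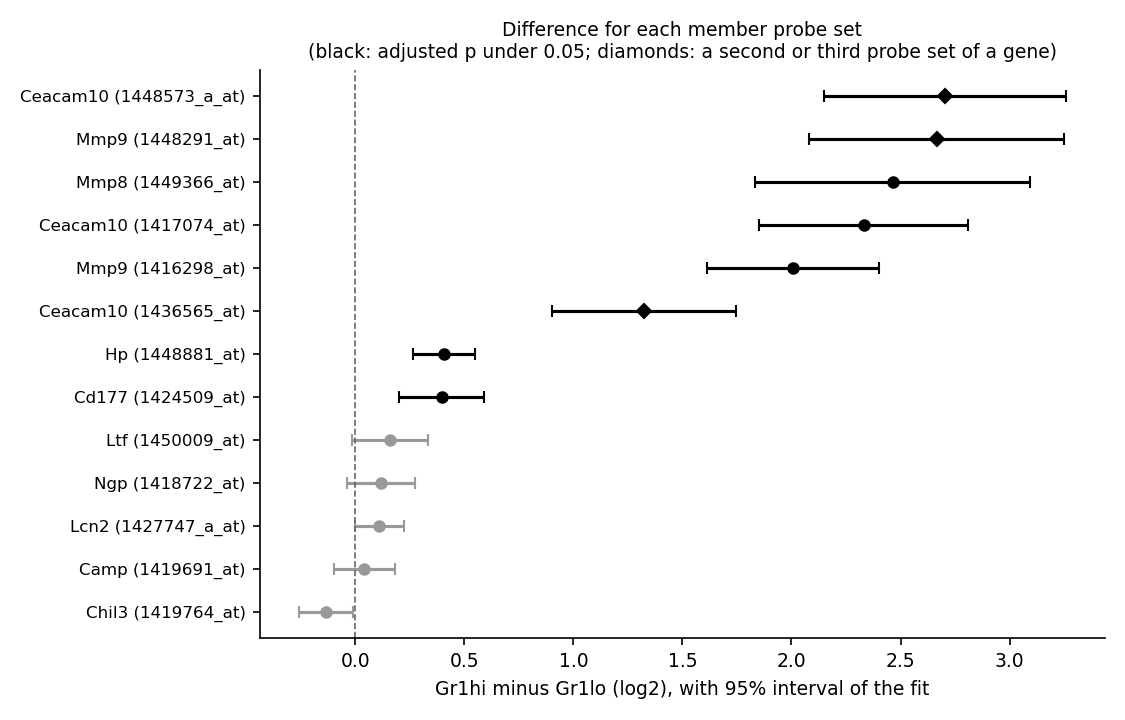
The difference Gr1hi minus Gr1lo (log2) of each of the 13 member probe sets with its 95% interval from the limma fit of single probe sets; black marks an adjusted p under 0.05 and diamonds mark further probe sets of a gene. The 5 brighter probe sets of Mmp8, Mmp9 and Ceacam10 lie at 2.01 to 2.70 and the dim Ceacam10 probe set, at the level of absent transcripts in Gr1lo, below them, those of Hp and Cd177 at 0.41 and 0.40, and the other 5 between -0.14 and 0.16.

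Genes at the top of the arrays' range had small differences, members or not. From the mean of Gr1lo to the mean array maximum there remained 0.23 for Camp, 0.45 for Chil3, 0.47 for Ngp, 0.51 for Lcn2 and 0.72 for Ltf. Of the 18 tested genes with a mean of 14 or more, 50.0% were called, the median size of the difference was 0.15, and the largest was -0.42, for the ribosomal protein gene Rps29. Of the 87 genes between 13 and 14, where Cd177 and Hp lie, 75.9% were called with a median size of 0.41, and of the 773 between 11 and 13, where Mmp8, Mmp9 and Ceacam10 lie, 79.2% with a median size of 0.57. Further down the median size was 0.77 between 8 and 11 (2976 genes, 75.2% called) and 1.21 between 5 and 8 (2790 genes, 74.0% called). It was again small, 0.24, below 5 (6095 genes, 35.9% called), so size did not follow the level in a single direction.

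**Figure D3:**
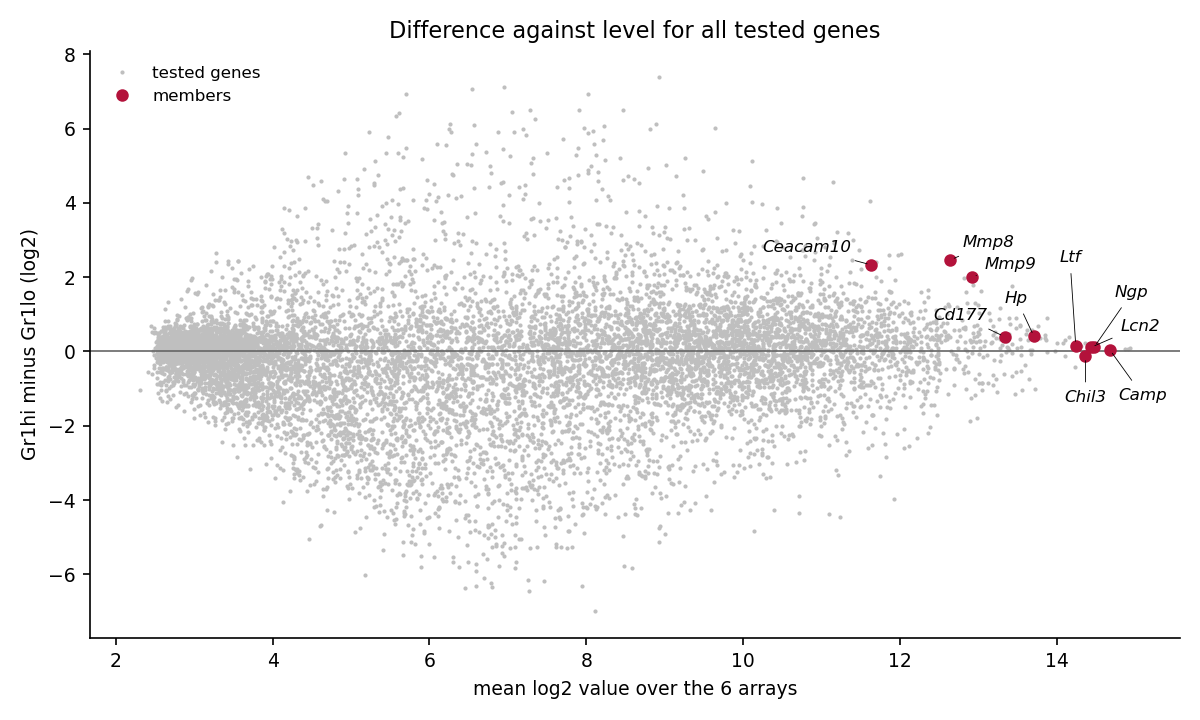
The difference Gr1hi minus Gr1lo (log2) of 12739 tested genes against their mean log2 value over the 6 arrays, with the granule genes in red. The spread of differences narrows towards the right end, where genes with a mean of 14 or more differ by at most 0.42 and where Ltf, Camp, Ngp, Lcn2 and Chil3 lie.

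Among the members with several probe sets, Mmp9 and Ceacam10 both had a smaller difference on their brightest probe set than on the next. Over all genes, the dimmest called probe set was compared with the brightest called one, and both went in the same direction for 3002 genes. The brighter of the compared probe sets had the smaller difference in 40.5% of these. Among the 167 of them whose brighter probe set averaged 12 or more, it had the smaller difference in 130 (77.8%). By that rule Ceacam10 is compared with its dim probe set (1436565_at), and its brightest probe set had the larger difference. Whether compression of the signal near the top of the range sets the small differences of Ltf, Camp, Ngp, Lcn2 and Chil3 was not tested.

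The granule genes varied more between the Gr1lo arrays than between the Gr1hi arrays. The SD was smaller in Gr1hi for 9 of the 10 members, all but Hp, and for 49.7% of all tested genes. The median SD of the members was 0.145 in Gr1lo and 0.065 in Gr1hi, against 0.151 and 0.153 over all tested genes. Bright genes in general also had the smaller SD in Gr1hi: the median SD was 0.084 in Gr1lo and 0.034 in Gr1hi for genes with a mean of 14 or more, 0.078 and 0.060 between 13 and 14, and 0.106 and 0.095 between 11 and 13. Gr1lo replicate 2 had the lowest value of its group for 10 of 10 members and for 37.7% of all tested genes. It lay below the mean of the other Gr1lo arrays by 0.082 for Lcn2 up to 1.23 for Mmp8, with 0.73 for Mmp9 and 0.61 for Ceacam10.

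The same array was lowest in 23 of 28 other specific and gelatinase granule genes and in 8 of 10 secretory vesicle and surface genes, and highest in 7 of 10 azurophil genes. Gr1lo replicate 3 was the highest of its group for 9 of 10 members (34.8% of all tested genes) and for 6 of 6 monocyte markers. In Gr1hi, replicate 3 was the highest for 5 of 6 monocyte markers but the lowest for 7 of 10 members. The part of the monocyte markers in the spread of the members was not tested. Leaving out Gr1lo replicate 2 kept the differences of Mmp9 at 1.76 and of Ceacam10 at 2.13, and both stayed called.

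**Figure D4:**
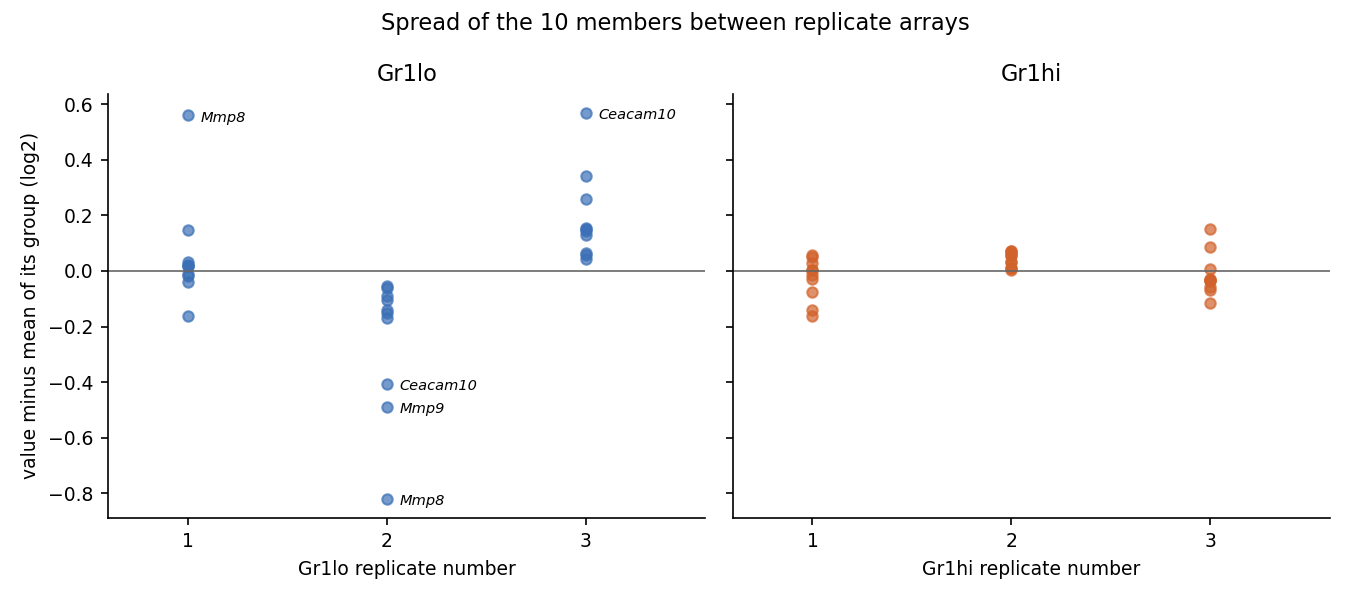
The log2 value of each granule gene minus the mean of its group, by replicate array, for Gr1lo (left) and Gr1hi (right). All 10 genes lie below 0 in Gr1lo replicate 2, where Mmp8, Mmp9 and Ceacam10 deviate most, and the Gr1hi arrays deviate by less than 0.2.

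The other genes of specific and gelatinase granules were mostly higher in Gr1hi as well. Of 28 tested, 18 were higher and 4 lower, with a median difference of 0.43. Slc11a1, an ion transporter of granule and phagosome membranes, rose by 5.59 (SE 0.54) from a low 5.31 ± 1.36. The membrane protease gene Adam8 rose by 3.46 (SE 0.32), the antiprotease gene Slpi by 1.99 (SE 0.18) and the maltase-glucoamylase gene Mgam by 1.60 (SE 0.12). Stom, which encodes the membrane protein stomatin, went the other way by -3.82 (SE 0.21). Hpse (heparanase) fell by 2.38 (SE 0.23), Orm1 (orosomucoid, a lipocalin like Lcn2) by 1.91 (SE 0.24) and B4galt1 (a galactosyltransferase) by 0.44 (SE 0.10). The call of B4galt1 was lost and its sign turned with median centring, at 0.24 (adjusted p = 0.0908). The count was 24 higher and 3 lower with that centring and 11 and 4 with control centring.

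Genes of the granules that form before and after ran to opposite sides. Of 10 tested azurophil granule genes, 0 were higher and 8 lower by limma, also at an unadjusted p under 0.05, with a median difference of -4.18. The count was 2 higher and 7 lower with median centring, 0 and 8 with control centring, and 1 and 8 without Gr1hi replicate 1. The elastase gene Elane read 11.43, 12.02 and 11.38 in Gr1lo and 5.26, 4.54 and 4.05 in Gr1hi. No array of the 2 groups came near the other, and the difference was -6.99 (SE 0.30). Cst7, which encodes a cystatin, fell by 6.44, and Ms4a3, a marker of granulocyte-monocyte precursors, fell by 4.82. Prtn3 (proteinase 3) fell by 4.46, Ctsg (cathepsin G) fell by 4.39 and Mpo (myeloperoxidase) fell by 3.98. Of 10 tested secretory vesicle and surface genes, 9 were higher and 0 lower, also at an unadjusted p under 0.05, with a median of 1.76, and 10 and 0 with median centring. The coreceptor gene Cd14 rose to 8.28 ± 0.71 from 3.04 ± 0.37, a level close to the absent-transcript controls that leaves the size of its rise uncertain. The complement regulator gene Cd55 rose by 4.47 (SE 0.31), the chemokine receptor gene Cxcr2 by 2.99 (SE 0.21), the G-CSF receptor gene Csf3r by 2.68 (SE 0.18), the Fc receptor gene Fcgr4 by 2.61 (SE 0.19) and the complement receptor-like gene Cr1l by 0.91 (SE 0.090).

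**Figure D5:**
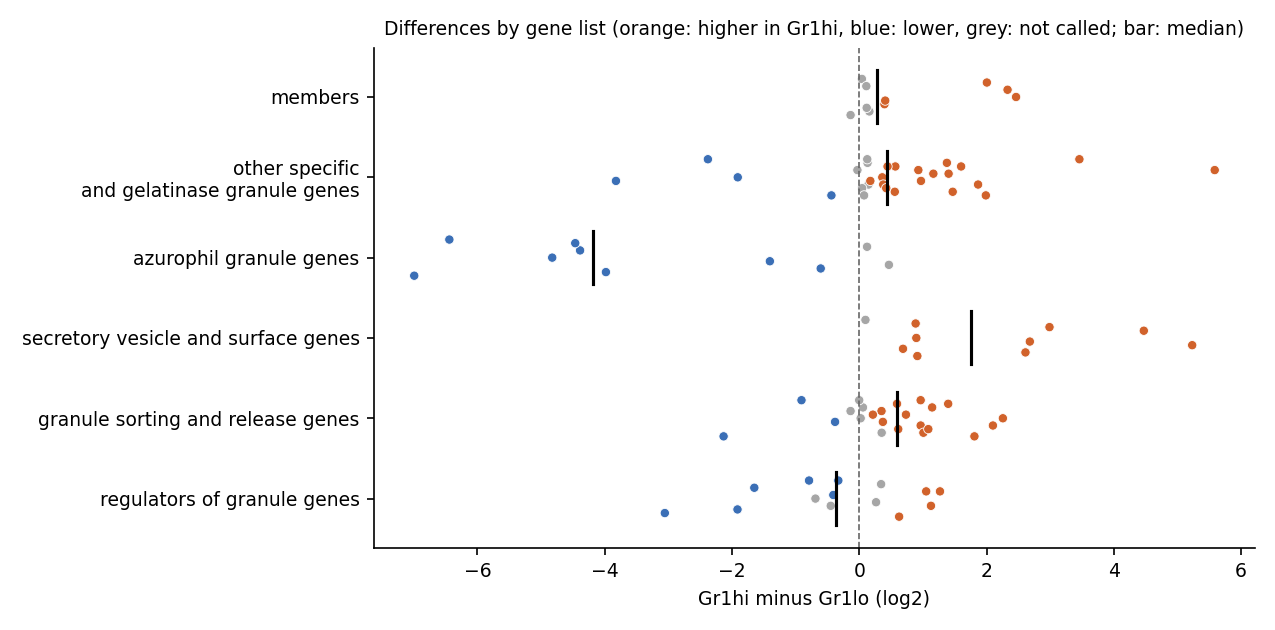
The difference Gr1hi minus Gr1lo (log2) of each tested gene in 6 lists (orange, called higher in Gr1hi; blue, called lower; grey, not called), with the median of each list as a black bar. Azurophil genes lie mostly left of 0 (median -4.18) and secretory vesicle and surface genes right of it (median 1.76), with the members (median 0.28) and the other specific and gelatinase genes (median 0.43) between.

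Genes that sort granules and release their content were more often higher than lower. Of 23 tested, 15 were higher and 3 lower, with a median of 0.59. Nbeal2, whose product is needed for granule retention in platelets and neutrophils, rose by 2.26 (SE 0.20), and the membrane fusion genes Snap23 and Stx11 by 2.10 (SE 0.13) and 1.81 (SE 0.11). Stxbp2, which encodes a syntaxin-binding partner, rose by 1.15 (SE 0.12), Lyst, the Chediak-Higashi gene, by 1.01 (SE 0.090) and the adaptor gene Ap3b1 by 0.97 (SE 0.12). Jagn1, an endoplasmic reticulum gene mutated in some congenital neutropenias, fell by 2.13 (SE 0.31). Vps45, also mutated in congenital neutropenia, fell by 0.91 (SE 0.21) and Lamp1 by 0.38 (SE 0.077). With median centring, Vps45 lost its call at -0.23 (adjusted p = 0.31), Lamp1 was called the other way at 0.30 (adjusted p = 0.0115), and the count became 21 higher and 1 lower. With control centring it was 10 and 4.

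Regulators of granule genes were divided. Of 14 tested, 4 were higher and 6 lower, with a median of -0.37. Over all tested genes, 24.6% were higher and 31.8% lower, so the split of this short list is not far from that of all genes. Cebpb and Cebpd, of the C/EBP family, rose by 1.27 (SE 0.11) and 0.63 (SE 0.071), Spi1, which encodes PU.1, by 1.13 (SE 0.096) and Stat3, a mediator of G-CSF signals, by 1.05 (SE 0.099). Gfi1, a repressor active in early granulocytes, fell by 3.05 (SE 0.23), the progenitor factor gene Myb by 1.91 (SE 0.092) and Cbfb, which encodes the partner of RUNX proteins, by 0.79 (SE 0.071). Cebpe had no probe set of a single symbol in the annotation used. Cbfb lost its call with median centring (-0.11, adjusted p = 0.266). The count was then 7 higher and 3 lower, and 4 and 8 with control centring.

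Of genes whose products bind, inhibit or receive the members' products, 10 passed the filter, with 4 higher and 0 lower, also at an unadjusted p under 0.05, and a median of 0.20. Timp2, an inhibitor of matrix metalloproteinases, read 9.02, 6.98 and 8.74 in Gr1lo and 12.25, 12.33 and 12.10 in Gr1hi. Gr1lo replicate 2 was again the lowest by far, and the difference was 3.98 (SE 0.43, limma adjusted p = 3.99e-05). Reck, which encodes a membrane-anchored inhibitor of these proteases, rose by 0.76 (SE 0.16), Cd44, a docking site for Mmp9, by 0.84 (SE 0.099) and Fpr2, a receptor for the cathelicidin peptide, by 0.90 (SE 0.10). Lrp1, a scavenger receptor for lactoferrin and proteases, read 3.18 ± 0.15 and 2.97 ± 0.10, and Mmp14 read 2.99 ± 0.12 and 3.23 ± 0.14, both close to the absent-transcript controls and not called. The count was 10 higher and 0 lower with median centring, and 4 and 1 with control centring.

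Family relatives of the members did not move together. Of 19 tested, 5 were higher and 5 lower, with a median of 0.08. These counts are near the shares over all tested genes, 24.6% higher and 31.8% lower. Most other metalloproteinase, lipocalin and chitinase-like genes read near the level of absent transcripts. The stefin gene Stfa3, of the cystatin superfamily to which Ngp is related, rose by 4.74 (SE 0.31), and Cst3 (cystatin C) by 0.36 (SE 0.075). The chitinase-like gene Chil1 rose by 0.97 (SE 0.17), while the chitinase gene Chit1 fell from 4.85 ± 0.15 to 3.00 ± 0.22 and Chil4 from 3.66 ± 0.21 to 2.80 ± 0.10. Both ended at or next to the level of absent transcripts, so the size of these falls is uncertain, and whether the Chil4 probes also read the similar Chil3 transcript was not tested. The lipocalin gene Orm1 fell well above that level, from 12.53 ± 0.11 to 10.62 ± 0.60. Orm1, Chil1, Cst3 and Plaur are counted among the other specific and gelatinase granule genes as well. Plaur and Ly6e, which share the Ly6/uPAR fold with Cd177, rose by 1.40 (SE 0.23) and 0.56 (SE 0.17). Chil4 lost its call with median centring (-0.18, adjusted p = 0.241), and Cst3 (0.10, adjusted p = 0.554) and Ly6e (0.30, adjusted p = 0.223) with control centring. Ly6e also lost it without Gr1lo replicate 1 (adjusted p = 0.0664) or Gr1hi replicate 1 (adjusted p = 0.067). The count was 14 higher and 2 lower with the former centring and 3 and 6 with the latter.

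Several members are neighbours in the genome (gene order of RefSeq for GRCm38.p6). Camp, Ngp and Ltf lie in this order along chromosome 9, with 8 other coding genes between Camp and Ngp and 20 between Ngp and Ltf, and Mmp8 lies elsewhere on that chromosome. Of the 19 tested genes between Camp and Ltf other than Ngp, 10 were higher and 5 lower in Gr1hi. Over all tested genes, 24.6% were higher and 31.8% lower. The 7 between Camp and Ngp had 2 higher and 5 lower, and the 12 between Ngp and Ltf 8 higher and 0 lower. The brightest of the 19 genes averaged 11.93 in its higher group. Their differences ran from -3.71 for Smarcc1, which encodes a chromatin remodelling subunit, to 2.26 for Nbeal2. Cd177 and Ceacam10 are direct neighbours on chromosome 7, where Cd177 rose by 0.40 and Ceacam10 by 2.33.

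Over the 6 arrays the genes most like Mmp8 were Myadm (Pearson r = 0.9993), Degs1 (0.9992) and Timp2 (0.9992), and those most like Ceacam10 were Prkab1 (0.9988), Fis1 (0.9987) and Rrm2b (0.9985). All 6 arrays share the split into 2 groups, and 129 of 12738 genes had an r above 0.99 with Mmp8 and 189 with Ceacam10. Timp2, Myadm and Degs1 also shared the low value of Mmp8 on Gr1lo replicate 2, Degs1 on the scale of a smaller difference (0.57).

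Markers of other marrow cells gave the following summed levels, each the log2 of a sum of linear values over the list. Monocyte markers (6 of 6 measured) ran from 9.88 to 10.93 in Gr1lo and from 11.86 to 12.17 in Gr1hi, with 2 genes higher and 1 lower. The rise of the sum was that of Csf1r (7.77 ± 1.07 to 11.78 ± 0.08, a difference of 4.01). Ms4a4c was also called higher (0.76), F13a1 was called lower (-0.98), both calls being lost in some fits without 1 array, and Ccr2, Cx3cr1 and Ly86 were not called. Macrophage markers (8 of 8 measured) ran from 10.15 to 10.67 and from 7.77 to 8.29, with 2 genes higher and 1 lower. Vcam1 differed by -5.25 and the F4/80 gene Adgre1 by 2.99 (from 4.58 ± 0.09 to 7.57 ± 0.28), both called. Cd5l rose by 0.57 from a level near that of absent transcripts, and Cd163 and C1qc stayed at that level. C1qb (3.24 ± 0.33 and 3.59 ± 0.47) and Mrc1 (3.06 ± 0.11 and 2.83 ± 0.17) were low and not called. C1qa did not pass the filter but read 3.34 on Gr1hi replicate 3. T and NK cell markers (6 of 7 measured) ran from 5.44 to 5.98 and from 8.52 to 8.78, a rise carried by Cd3d (4.17), while Cd3e, Cd3g, Ncr1 and Gzma stayed at the level of absent transcripts. Eosinophil markers (6 of 9 measured) were between 8.24 and 8.78 in Gr1lo and between 8.24 and 8.48 in Gr1hi. This sum was largely that of Siglecf (8.46 ± 0.34 and 8.17 ± 0.08), and neither Siglecf nor Prg2 was called. Epx, Prg3, Il5ra and Ccr3 were at the level of absent transcripts. Dendritic cell markers (6 of 6 measured) ran from 5.43 to 5.70 and from 6.75 to 7.40, with 3 genes higher and 0 lower. Itgax rose by 3.29 from 2.48 ± 0.38, near the level of absent transcripts, Cd74 by 1.44 and H2-Ab1 by 0.58. Some fits without 1 array lost the H2-Ab1 call, Siglech and Ccr9 were not called, and Flt3 stayed at the level of absent transcripts. Basophil and mast cell markers (6 of 7 measured) ran from 8.88 to 9.09 and from 6.75 to 8.66. Of these, 0 were higher and 2 lower, Kit (-1.94) and Ms4a2 (-1.64), and Mcpt8, Cpa3 and Gata2 were not called. Mcpt8 read 7.74 on Gr1hi replicate 3 and 5.13 and 3.13 on the others of that group. B cell, erythroid and megakaryocyte lists summed to at most 6.29, 4.56 and 6.19 on any array. Of these lists, only the eosinophil and B cell lists had sums that overlapped between the groups. Among single genes, the groups did not overlap for 65.5% of all tested genes. The part of these cell types in the differences of the granule genes was not tested.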

How the data were processed

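Expression in 3 Gr1lo and 3 Gr1hi samples was read from the deposited series table of log2 probe set values (45101 probe sets, no missing value), a scale that the authors reached by GCRMA, per the submitters' processing notes. Which GCRMA release and options were used is not given in the sources used here. Control probe sets (64) were set aside, and a gene was named where the platform annotation gives a single symbol. For each gene the probe set of highest mean value was used, and the gene was kept if at least 3 of 6 arrays lay above the array's 40th percentile. Gr1hi was compared with Gr1lo over all kept genes with limma (version 3.58.1, R version 4.3.3; lmFit, then eBayes with trend; two-sided, Benjamini-Hochberg, threshold 0.05). The code was tested on simulated data. Figures were made with Python 3.11.15 and matplotlib 3.10.9. Members and gene lists were chosen with earlier results of these data known. Genes named beside the members are the up to 6 of a list with the smallest p, those called against the list's majority, and the 3 genes most like Mmp8 and Ceacam10; other neighbours, markers and the promoter words were chosen after their values or letters were seen. Alternatives covered filter, probe set choice, variance model, scaling, replicate block, threshold and omitted arrays.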

Additional observations from a re-analysis of the deposited data

How the results depend on the processing

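Mmp8, Mmp9 and Ceacam10 kept direction and call under all 19 alternatives, at 2.05 to 3.14, 1.75 to 2.68 and 2.07 to 3.01. The main count of 5 members higher became 10 with median centring, 3 with control centring and 3 in a test against a 1.5-fold change, and 5 to 7 with 1 array left out. The count lower, 0, became 1 (Chil3) with array weights, repeated quantile normalization or control centring and was 0 to 1 with 1 array left out (1 without Gr1lo replicate 2). Member probe sets lower became 1 under the same settings and with no filter, and 0 to 1 with 1 array left out. Over all genes the counts higher and lower were 8354 and 2313 with median centring, 1355 and 2419 against a 1.5-fold change, and 1861 higher with control centring. With each probe set on its own, the unit was the probe set, and 5950 of 22715 probe sets were higher and 6805 lower.

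Signs turned for Camp (-0.048 with repeated quantile normalization, -0.22 with control centring, -0.010 to 0.11 with 1 array left out), for Ltf (-0.099), Ngp (-0.14) and Lcn2 (-0.15) with control centring, and for Chil3 (0.54) with median centring. The centrings turn these signs because they shift every gene by 0.68 or -0.26; for the other settings the cause was not tested. Same-numbered arrays deviated together weakly (r = 0.166, 0.004 and 0.145), so the numbers were not taken to pair the samples. The replicate 3 arrays of both groups nonetheless shared a high Xist (10.95 and 10.14), and whether same-numbered arrays share a source is not stated. With the replicate number as a block, 5 members were higher and 0 lower, and no call of a member changed. Over all genes, 3038 were then higher and 4021 lower. Each array correlated best with its own number except the replicate 2 arrays of both groups. For 5 of the members the probe sets lay near the array maximum, and whether that limits their differences was not tested. A pseudocount did not apply to log2 values.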
